A study of Mus musculus with 8 samples.

Results

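The genes described here are the 53 protein-coding rows, of 34866 rows in the deposited table, whose symbol starts with Nduf or mt-Nd: 38 nuclear genes of the Ndufa, Ndufb, Ndufc, Ndufs and Ndufv series, 8 nuclear assembly factors of the Ndufaf series, and 7 genes of the mitochondrial genome. All 53 passed the filter on low counts. A further 4 rows with such symbols, Ndufs6b, Ndufab1-ps, Ndufb4c and Ndufa11b, are annotated as pseudogenes and were left out. A pair of the 38 carry the symbol without being complex I subunits: Ndufa4 encodes a subunit of cytochrome c oxidase (complex IV), and Ndufa4l2 is its paralogue.

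Complex I oxidises NADH, passes the electrons through iron-sulfur clusters to ubiquinone, and pumps protons across the inner mitochondrial membrane. It is L-shaped: the matrix arm holds the N module, where NADH is oxidised, and the Q module, where ubiquinone is reduced, while the membrane arm holds the proton pumps, whose core is encoded by the mitochondrial genome. Catalysis rests on a core of subunits shared with bacteria, the remaining supernumerary subunits surround that core, and assembly factors help build the complex without staying in it. The developing brain depends on it, and human variants in many of these genes cause Leigh syndrome, a disease of the brainstem and basal ganglia.

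RNA was measured by RNA-seq in the brains of 8 mouse embryos. The 3 mutants, HLHS mice (hypoplastic left heart syndrome), were Sap130 m/m and Pcdha9 m/m. The 5 littermate controls were Sap130 +/m and Pcdha9 +/m, so every embryo carried mutant alleles of both genes and no wild-type embryo was compared. Sap130 encodes a subunit of the SIN3 histone deacetylase complex, and Pcdha9 an alpha protocadherin. Mutant 260-1 and controls 260-2 and 260-3 were at E13.5. Mutants 195-3 and 303-2 and controls 195-2, 195-6 and 303-3 were at E14.5. The shared first number in these names is read as a litter, which the labels do not define.

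The library totals ranged from 36438282 to 47838448 counts. Sap130 was lower in the mutants, at 32.6 to 35.9 CPM (counts scaled to library size) against 46.8 to 52.1 in the controls, without overlap (log2 change -0.54, SE 0.070, edgeR adjusted p = 0.00291). Pcdha9 was also lower (log2 change -0.66, SE 0.16, adjusted p = 0.0212), with overlapping groups. The libraries differed in regional markers. Mutant 260-1 and control 195-6 nearly lacked the 12 Hox genes that mark hindbrain and cord, with sums of 0.339 and 2.74 CPM; elsewhere the sum ran from 169 to 350 CPM. The summed level of 10 midbrain and diencephalon markers was 680 to 804 CPM in the mutants against 420 to 502 CPM in the controls, with 9 of the 10 called higher. The sum of 10 telencephalon markers was 301 CPM in mutant 195-3 and 749 CPM in mutant 303-2, below all controls (1268 to 1547 CPM), and 1491 CPM in mutant 260-1. Of these 10 genes 1, Bcl11b, was called lower and none higher, and the fitted change was positive in 2, Emx2 and Lhx2. Markers of the labelled tissue were abundant: the sum of 10 neuronal markers was 5788 to 7398 CPM in the mutants and 6591 to 7744 CPM in the controls (3 lower, none higher), and that of 10 progenitor markers was 1822 to 2812 and 1695 to 2198 CPM (4 higher, none lower). The sums of 10 markers each were 1090 to 2422 CPM in the mutants and 1077 to 1665 CPM in the controls for erythroid cells, 74.2 to 126 and 87.3 to 100.1 CPM for microglia, 346 to 448 and 335 to 377 CPM for endothelium, 705 to 1156 and 655 to 916 CPM for mesenchyme and meninges, and 4.86 to 8.57 and 7.61 to 11.4 CPM for muscle. Of these lists, 2 erythroid genes (Hbb-bh1 and Hbb-y), 2 endothelial genes (Pecam1 and Slc2a1) and 1 mesenchymal gene (Lum) were called higher, and 2 microglial genes (P2ry12 and Cx3cr1) and 1 muscle gene (Myh7) lower. All these marker counts stand beside 10.9% of all genes tested called higher and 9.74% called lower. The part of these differences in the results that follow was not tested, and in such bulk samples a change in cell composition and a change in RNA per cell cannot be told apart.

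Transcripts of the nuclear subunits were more abundant in the mutant brains. Of the 38 nuclear genes, 23 rose at an adjusted p under 0.05 by the edgeR quasi-likelihood test, and the fitted change was positive in all 38, from 0.07 in Ndufs1 to 0.83 in Ndufb4, with a median log2 change of 0.33. Among all 17357 genes tested, 10.9% were called higher, 9.74% were called lower, and the median was -0.001. Of the 8 assembly factors 1 rose, Ndufaf2, and their median log2 change was 0.15. Of the 7 mitochondrially encoded subunits 3 rose, mt-Nd1, mt-Nd2 and mt-Nd3, and the median was 0.20. The differences between these classes were not tested, and their median transcript lengths were 810, 1308.5 and 957 bases. None of the 53 was called lower by edgeR, and 0 were lower at an unadjusted p under 0.05. DESeq2 called 0 of the 53 lower and 30 higher. It also called more of all genes, 4352 in either direction against 3576 by edgeR.

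**Figure D1:**
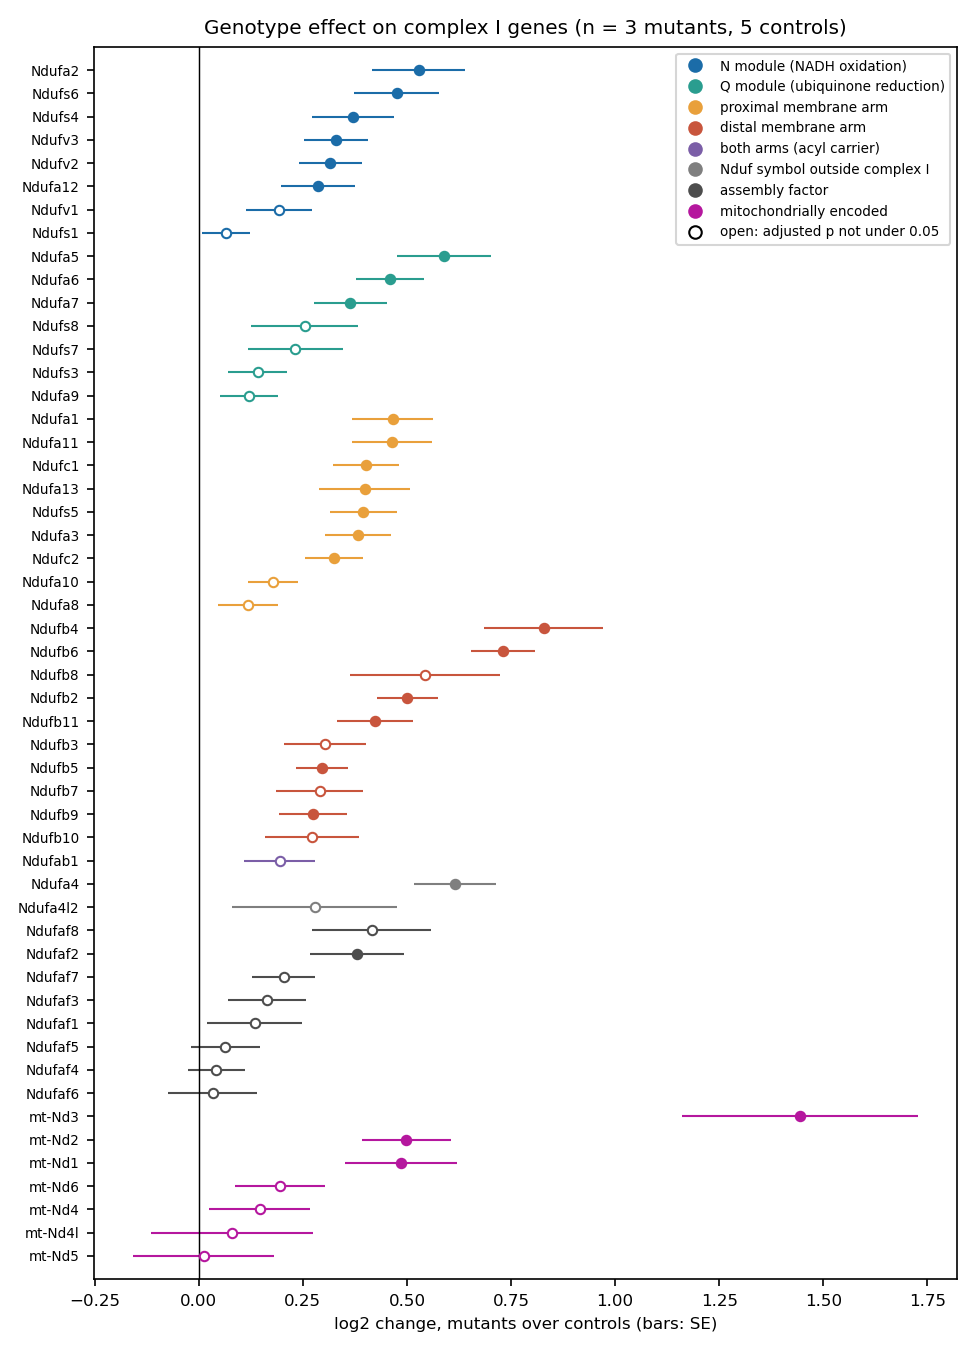
Fitted log2 change, mutants over controls, by gene, coloured and grouped by module; bars are the SE of the fit over 3 mutants and 5 controls, and filled points are genes with an adjusted p under 0.05. All points lie above 0, with mt-Nd3 at 1.44 and the next, Ndufb4, at 0.83.

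In 25 of the 38 nuclear genes every mutant lay above every control, against 11.3% of all genes tested. For the assembly factors this held in 1 of 8 (Ndufaf7) and for the mitochondrially encoded subunits in 2 of 7. Summed over the 38 nuclear genes, the level was 2613, 2665 and 2862 CPM in mutants 260-1, 195-3 and 303-2. In controls 260-2, 260-3, 195-2, 195-6 and 303-3 it was 2085, 2344, 2026, 2253 and 2006 CPM. The groups did not overlap, and the highest control was 260-3. For the 8 assembly factors the sum ranged from 148 to 162 CPM in the mutants and from 131 to 142 CPM in the controls.

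The size of the rise varied from litter to litter. Each litter holds a single mutant, so a difference between litters cannot be told apart from one between single embryos. Within a litter, the median log2 difference of the nuclear genes, mutant minus controls, was 0.22 for number 260, 0.30 for 195 and 0.52 for 303, with 35, 38 and 38 of the 38 genes positive. Controls of the same litter also differed in this measure: control 260-3 exceeded 260-2 by a median of 0.19, in 37 of 38 genes, and control 195-6 exceeded 195-2 by 0.16, in 36 of 38. The shift of the mutant in litter 260 was therefore close in size to the gap between its own controls, and that of litter 303 rests on a single control. The count of nuclear genes called higher was 10 without mutant 303-2, 13 without control 195-2 and 15 without control 303-3.

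**Figure D2:**
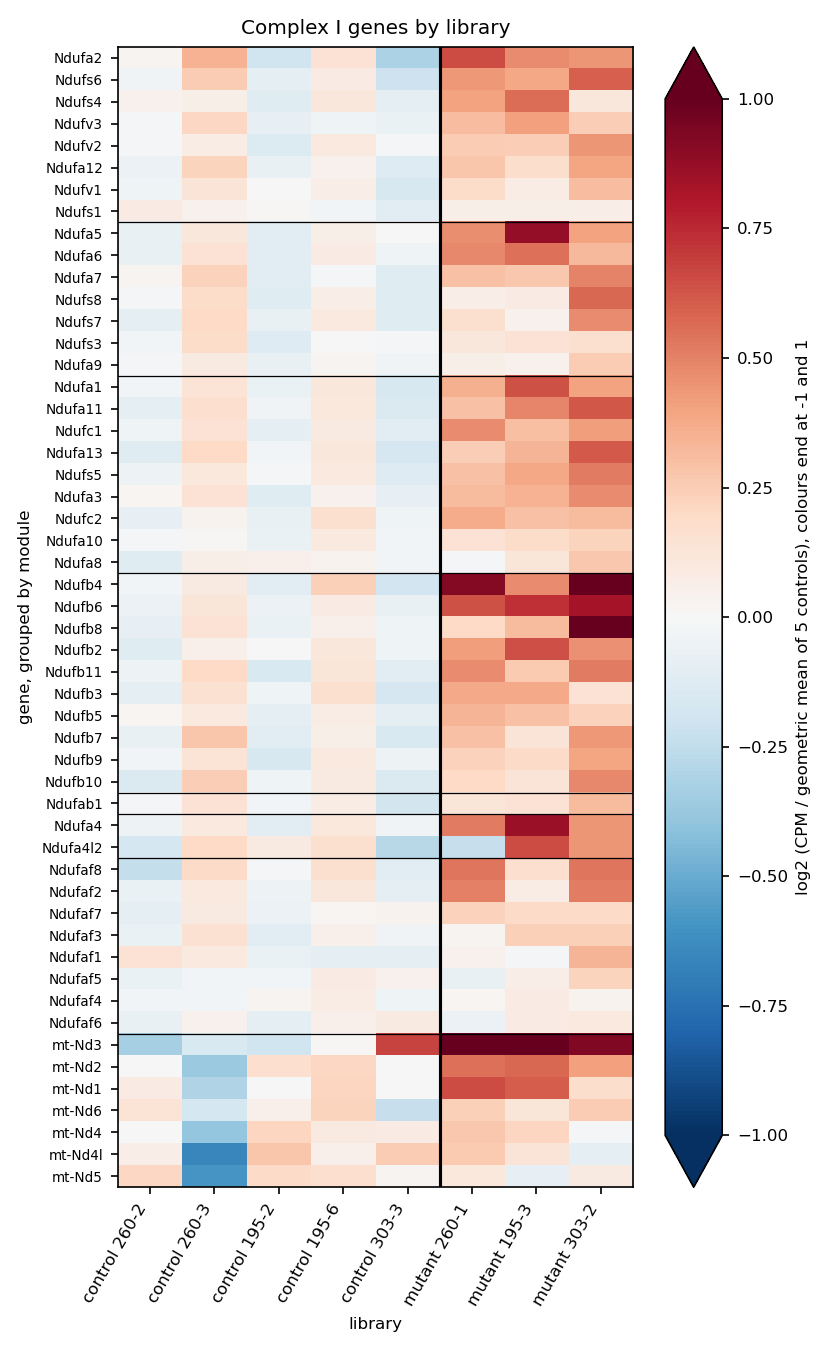
Level of each gene in each library as the log2 ratio of its CPM to the geometric mean of the 5 controls, with controls left and mutants right of the vertical line and modules parted by horizontal lines. The nuclear rows are mostly red across the 3 mutants, with Ndufs1, Ndufa8 and Ndufa4l2 near white or blue in mutant 260-1; control 260-3 is pale red in most nuclear rows and blue in the mt-Nd rows.

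Transcript length moved with these changes. The nuclear genes are short, with a median transcript length of 810 bases against 2615.5 bases for all genes tested, and over all genes tested short transcripts were higher in the mutants (Spearman rho of log2 change with length -0.285 across 17288 genes, -0.507 across the 38; genes are not independent replicates). The trend did not extend to the shortest class. Below 500 bases, 17.7% of all genes tested rose, with a median log2 change of 0.07, beside 4 of 4 of the nuclear genes, with a median of 0.46. Among genes of 500 to 700 bases, 30.6% of all genes tested rose, with a median log2 change of 0.26, beside 10 of 11 nuclear genes of complex I, with a median of 0.40. Among genes of 700 to 1000 bases, 26.1% of all genes rose, beside 5 of 11. With a per-library offset fitted to transcript length and GC content, 14 of the 38 nuclear genes were called higher and 0 lower, with a median log2 change of 0.18, against 11.4% of all genes called higher and 8.11% called lower and a median of 0.02. The same offset left 0 of 8 assembly factors and 2 of 7 mitochondrially encoded subunits called. Their median log2 changes with it were 0.09 and 0.02, with 6 of 8 and 4 of 7 positive. The mitochondrially encoded median was thus level with the 0.02 of all genes.

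**Figure D3:**
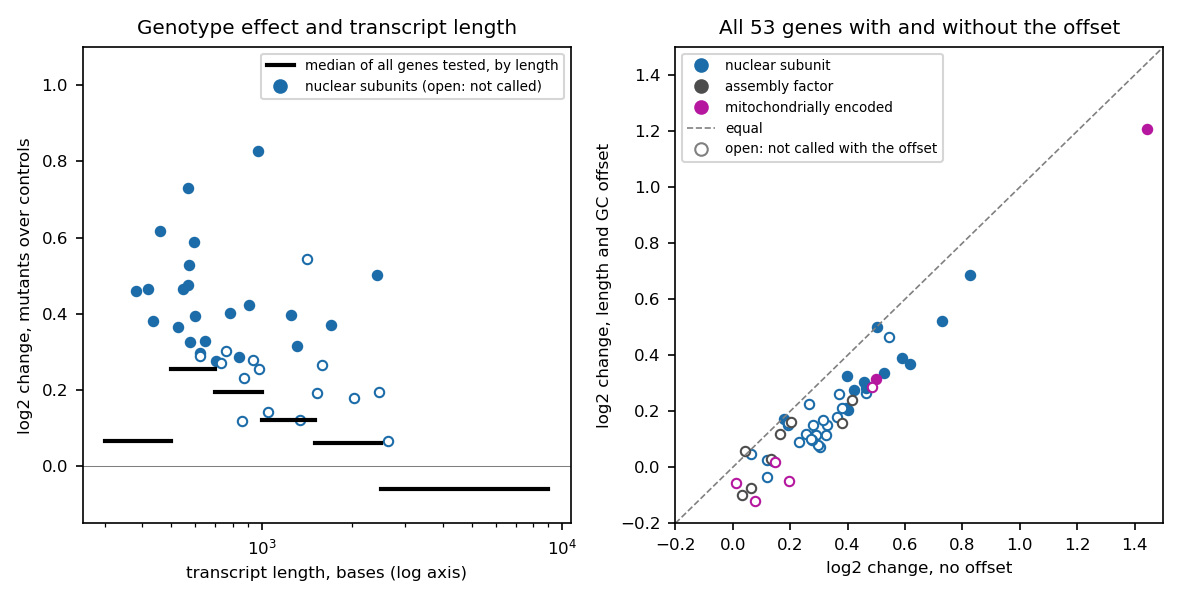
Left, log2 change of the 38 nuclear genes (points; open where not called) against transcript length on a log axis, with the median of all genes tested in each length class as horizontal bars. Right, log2 change of the 53 genes without and with the length and GC offset; all points but Ndufaf4 lie below the dashed line of equality, and Ndufb2 lies close to it at 0.50.

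In the N module, which takes electrons from NADH, 6 of 8 genes rose, with a median log2 change of 0.32; with the length and GC offset 2 of 8 were called, with a median of 0.16, and Ndufs4, Ndufv3, Ndufv2 and Ndufa12 were not. They were Ndufa2 (0.53), Ndufs6 (0.48), which binds zinc, Ndufs4 (0.37), whose loss in mice is a model of Leigh syndrome, Ndufv3 (0.33), Ndufv2 (0.32) and Ndufa12 (0.29). Ndufv1, which holds the flavin that accepts electrons from NADH, was not called (log2 change 0.19, SE 0.080, adjusted p = 0.112). Ndufs1, its largest iron-sulfur subunit, measured 112, 112 and 113 CPM in mutants 260-1, 195-3 and 303-2. It measured 114, 111, 108, 106 and 99.5 CPM in controls 260-2, 260-3, 195-2, 195-6 and 303-3. The mutants lay inside the range of the controls, with a log2 change of 0.07 (SE 0.057, adjusted p = 0.436), the largest p of the 38.

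In the Q module, where ubiquinone is reduced, 3 of 8 genes rose (2 of 8 with the offset), with a median of 0.26, and all 3 were supernumerary. Ndufa5 measured 39.0, 52.0 and 37.3 CPM in the mutants, in the order used above, and 26.8, 30.7, 26.3, 29.5 and 28.4 CPM in the controls. Every mutant was above every control and mutant 195-3 was the highest (log2 change 0.59, SE 0.11, adjusted p = 0.00919). Ndufa6, which docks the acyl carrier protein on the matrix arm, measured 60.9, 64.0 and 54.7 CPM in the mutants and 41.5, 48.3, 40.3, 46.1 and 42.2 CPM in the controls. Its groups were also separate, with a log2 change of 0.46 (SE 0.082, adjusted p = 0.00730). Ndufa7 rose by 0.36 on the log2 scale. The core subunits Ndufs8 (0.25), which carries iron-sulfur clusters, Ndufs7 (0.23), which lies at the ubiquinone site, and Ndufs3 (0.14) did not pass. The supernumerary Ndufa9 was at 0.12 and was not called.

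In the proximal part of the membrane arm, 7 of 9 genes rose (5 of 9 with the offset), with a median of 0.40. Ndufa11, a membrane subunit, measured 58.4, 66.6 and 73.3 CPM in the mutants and 44.4, 53.5, 46.5, 51.2 and 43.1 CPM in the controls. No mutant overlapped the controls, and mutant 303-2 was the highest (log2 change 0.46, SE 0.097, adjusted p = 0.0121). Ndufs5, a subunit of the intermembrane space side, measured 56.5, 60.2 and 65.9 CPM in the mutants and 44.4, 49.5, 45.5, 49.4 and 42.2 CPM in the controls (log2 change 0.40, SE 0.080, adjusted p = 0.0108). Ndufa3 measured 46.4, 47.4 and 51.7 CPM in the mutants and 37.8, 41.2, 34.3, 38.4 and 35.2 CPM in the controls (log2 change 0.38, SE 0.079, adjusted p = 0.0119). Both were separate between the groups, with control 260-3 the highest control and mutant 303-2 the highest mutant. Ndufc1 measured 43.7, 38.8 and 42.0 CPM in the mutants and 30.6, 34.8, 29.5, 33.5 and 29.2 CPM in the controls, again without overlap (log2 change 0.40, SE 0.080, adjusted p = 0.0103). The X-linked Ndufa1 (0.47), Ndufa13 (0.40), also known as GRIM-19, and Ndufc2 (0.33) rose as well. Ndufa10 was at 0.18 and was not called.

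Ndufa8, an intermembrane space subunit, was the least changed of this group. It measured 51.9, 57.2 and 63.4 CPM in the mutants and 48.4, 54.7, 54.4, 54.0 and 51.5 CPM in the controls. Mutant 260-1 lay inside the control range and the other mutants above it (log2 change 0.12, SE 0.072, adjusted p = 0.263).

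In the distal part of the membrane arm, 6 of 10 genes rose (4 of 10 with the offset), with a median of 0.36, and the 2 largest log2 changes of the nuclear genes, those of Ndufb4 and Ndufb6, were found there. Ndufb6 measured 56.4, 60.2 and 64.4 CPM in the mutants and 34.7, 39.5, 34.8, 38.3 and 34.4 CPM in the controls. The lowest mutant stood well above the highest control, and the p was the smallest of all 53 genes (log2 change 0.73, SE 0.077, adjusted p = 0.00175). Ndufb6 shares 257 of its 659 exonic bases with Smim27 on the opposite strand, which the TruSeq RNA kit does not tell apart, and Smim27 itself was counted at 2.81 CPM in the mutants and 2.35 CPM in the controls. Ndufb2 measured 62.0, 72.6 and 63.9 CPM in the mutants and 42.7, 48.2, 46.3, 50.3 and 45.1 CPM in the controls. Its groups were separate, and its log2 change of 0.50 (SE 0.074, adjusted p = 0.00394) was also 0.50 with the length and GC offset. The offset value rests on the median length of its annotated transcripts, 2413 bases, against a median of 747.5 bases for the distal genes. Which of its transcripts was expressed was not tested. Ndufb2, Ndufb6 and Ndufa6 were called in all 21 alternative analyses, the only 3 of the 27 called genes for which this held.

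Ndufb4 shares its reads with the processed pseudogene Ndufb4c on chromosome 15, identical over 390 aligned bases, whose row holds 67.0% of the counts of the pair. The Ndufb4 row measured 23.8, 17.5 and 26.1 CPM in the mutants and 12.4, 13.4, 11.7, 14.9 and 11.0 CPM in the controls, without overlap (log2 change 0.83, SE 0.14, adjusted p = 0.00646). With both rows added the levels were 65.0, 59.7 and 77.1 CPM in the mutants and 37.6, 42.5, 35.2, 44.4 and 33.8 CPM in the controls. The sum was separate between the groups in the same way and gave a log2 change of 0.80 (SE 0.11, adjusted p = 0.00360), which was called in 10 of 10 alternatives. The other risen genes were the X-linked Ndufb11 (0.42), Ndufb5 (0.30) and Ndufb9 (0.28). Ndufb8 had a log2 change of 0.54 that was not called (SE 0.18, adjusted p = 0.0685), with 145 CPM in mutant 303-2 against 80.3 and 87.2 CPM in the other mutants and 66.2 to 77.6 CPM in the controls. Ndufb3 (0.30), Ndufb7 (0.29) and Ndufb10 (0.27) were not called. Ndufab1, the acyl carrier protein found in both arms, was at 0.19 and was not called either, alone or with the row of its pseudogene Gm4459.

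Read by evolutionary class, 1 of the 7 nuclear core subunits rose (Ndufv2), with a median log2 change of 0.23, against 21 of the 29 supernumerary subunits, with a median of 0.38. These classes differ in transcript length, with medians of 1312 and 704 bases. With the length and GC offset 0 of 7 and 13 of 29 were called, with medians of 0.12 and 0.21; the difference between the classes was not tested.

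Of the 2 genes outside complex I, 1 rose. Ndufa4, the complex IV subunit, measured 172, 218 and 163 CPM in the mutants and 116, 128, 111, 129 and 117 CPM in the controls. Every mutant exceeded every control, and mutant 195-3 was the highest (log2 change 0.62, SE 0.099, adjusted p = 0.00530). Ndufa4l2, which in other tissues is induced by hypoxia, measured 2.82, 5.21 and 4.48 CPM in the mutants and 2.93, 3.80, 3.53, 3.70 and 2.73 CPM in the controls. Mutant 260-1 was at the low end of the controls and the other mutants were above them (log2 change 0.28, SE 0.20, adjusted p = 0.339). Without this pair, 22 of 36 nuclear genes rose, with a median of 0.33.

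Of the assembly factors, Ndufaf2, a paralogue of Ndufa12 that acts late in assembly, measured 25.7, 19.1 and 25.9 CPM in the mutants and 17.3, 19.4, 17.5, 19.6 and 17.0 CPM in the controls. Mutant 195-3 lay inside the control range, and the call (log2 change 0.38, SE 0.11, adjusted p = 0.0408) held in 8 of 21 alternatives, with adjusted p between 0.00545 and 0.340. Most exonic bases of Ndufaf2 also overlap a noncoding gene on the opposite strand, as given below. Ndufaf8, the partner of Ndufaf5, measured 10.2, 7.88 and 10.2 CPM in the mutants and 5.94, 8.01, 6.96, 7.83 and 6.52 CPM in the controls. Again mutant 195-3 lay inside the control range (log2 change 0.42, SE 0.14, adjusted p = 0.0632). Ndufaf7, a methyltransferase, measured 27.8, 27.1 and 27.1 CPM in the mutants and 22.3, 25.3, 22.8, 24.0 and 24.3 CPM in the controls. Its groups did not overlap, yet its log2 change of 0.20 was not called (SE 0.076, adjusted p = 0.0820). The early Q module factors Ndufaf3 (0.16) and Ndufaf4 (0.04), the membrane arm factor Ndufaf1 (0.13), Ndufaf5 (0.06) and Ndufaf6 (0.03) were not called. At an unadjusted p under 0.05, 3 of the 8 factors were higher and 0 lower. The share of all genes at that threshold was not counted, so the 3 have no baseline here. Of 12 further complex I assembly factors without an Ndufaf symbol, 4 rose and none fell, with a median of 0.21, beside 10.9% of all genes tested; with the length and GC offset 0 of 12 were called, with a median of 0.16. The 3 of smallest p were Dmac1 (0.41), Tmem126a (0.31) and Lyrm2 (0.33).

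The mitochondrially encoded subunits did not move as a block. The membrane subunits mt-Nd1 and mt-Nd2 rose by 0.49 and 0.50 on the log2 scale and mt-Nd3 by 1.44, and mt-Nd4, mt-Nd4l, mt-Nd5 and mt-Nd6 did not pass. mt-Nd2 measured 1603, 1625 and 1450 CPM in mutants 260-1, 195-3 and 303-2. In controls 260-2, 260-3, 195-2, 195-6 and 303-3 it measured 1092, 845, 1224, 1262 and 1092 CPM. The groups were separate, with control 260-3 the lowest (log2 change 0.50, SE 0.11, adjusted p = 0.0134). mt-Nd1, which forms the ubiquinone chamber with the Q module, measured 2125, 2060 and 1531 CPM in the mutants and 1427, 1099, 1358, 1572 and 1348 CPM in the controls. Mutant 303-2 lay inside the control range (log2 change 0.49, SE 0.13, adjusted p = 0.0341), and the call held in 10 of 21 alternatives.

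The mt-Nd3 row measured 219, 230 and 132 CPM in the mutants and 55.1, 62.2, 60.4, 69.7 and 110 CPM in the controls. The groups were separate, but control 303-3 stood far above the other controls and near its littermate mutant 303-2 (log2 change 1.44, SE 0.28, adjusted p = 0.0193). This row shares its reads with Gm28438, a nuclear pseudogene copy of mitochondrial DNA at chr1:24612775-24613119 (GRCm38, minus strand), which is 99.7% identical over 345 bases and whose row holds 73.5% of the counts of the pair. The copies differ at 1 base, T3C counted from the first base of mt-Nd3, shown in capitals in the first 15 bases of each, which read as follows in GRCm38 (mt-Nd3 at chrM:9459-9473, plus strand; Gm28438 at chr1:24613105-24613119, minus strand).
mt-Nd3: atTaacctgtacact
Gm28438: atCaacctgtacact
Reads that do not cover that base cannot be placed by sequence. The mt-Nd3 row held 48.3% of the summed counts in control 303-3 and 21.8% to 27.9% in the other 7 libraries. With both rows added the level was 848, 956 and 511 CPM in the mutants and 226, 223, 219, 319 and 228 CPM in the controls. In the sum, control 303-3 was level with the other controls, the groups were separate, and the log2 change was 1.67 (SE 0.22, adjusted p = 0.00531). The sum was called in 10 of 10 alternatives, with log2 changes of 1.44 to 1.90, while the row alone was called in 15 of 21.

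**Figure D4:**
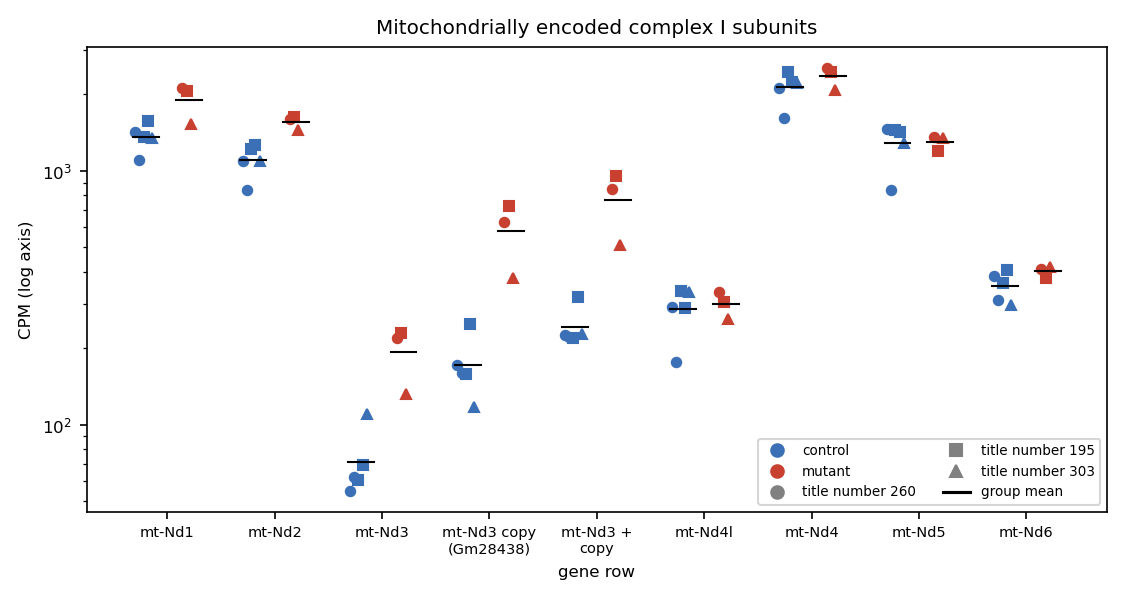
CPM on a log axis of the mitochondrially encoded subunits, with mt-Nd3 shown as its own row, as the row of its nuclear copy Gm28438 and as their sum; each point is a library (blue controls, red mutants, marker shape the number in the title), and short bars are group means. The mutants stand above the controls in mt-Nd2 and in all 3 forms of mt-Nd3, and overlap them in mt-Nd1 and in the 4 genes to the right.

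The proton pump subunit mt-Nd4 measured 2540, 2447 and 2086 CPM in the mutants and 2121, 1611, 2451, 2248 and 2229 CPM in the controls. mt-Nd4l, encoded in the same transcript and overlapping mt-Nd4 by 7 bases, measured 334, 305 and 260 CPM in the mutants and 292, 177, 337, 288 and 332 CPM in the controls. In both, mutant 303-2 was below its littermate control, and the log2 changes of 0.15 (SE 0.12, adjusted p = 0.411) and 0.08 (SE 0.20, adjusted p = 0.807) were not called. mt-Nd5, the most distal pump, measured 1365, 1197 and 1348 CPM in the mutants and 1461, 839, 1444, 1423 and 1290 CPM in the controls. All 3 mutants lay inside the control range (log2 change 0.01, SE 0.17, adjusted p = 0.968). mt-Nd6, the only one of these genes on the light strand, measured 413, 380 and 417 CPM in the mutants and 384, 310, 361, 408 and 297 CPM in the controls, with mutant 195-3 inside the control range (log2 change 0.20, SE 0.11, adjusted p = 0.221). It overlaps mt-Nd5 on the opposite strand by 14 bases.

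Control 260-3 was the lowest control in mt-Nd1, mt-Nd2, mt-Nd4, mt-Nd4l and mt-Nd5 and the highest control in 29 of the 38 nuclear genes. The 7 mt-Nd rows summed to 4944 CPM in it, to 6698 to 7271 CPM in the other controls and to 7223 to 8598 CPM in the mutants. The ratio of this sum to that of the 38 nuclear genes was 3.29, 3.09 and 2.52 in mutants 260-1, 195-3 and 303-2 and ranged from 2.11 in control 260-3 to 3.57 in control 195-2, so that the groups overlapped. Within litters the median log2 difference of the 7 mt-Nd genes was 0.56 for number 260, 0.06 for 195 and 0.18 for 303, with 7, 4 and 5 of 7 positive, beside a gap of -0.38 between controls 260-3 and 260-2. The number of mt-Nd genes called was 0 without mutant 260-1, 1 without mutant 195-3, 1 without control 260-2 and 1 without control 195-2.

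Per kilobase of transcript, the mitochondrially encoded subunits were the most abundant in the controls, with a median of 960 CPM per kilobase, against 61.8 for the nuclear genes and 11.2 for the assembly factors. The order on this scale was mt-Nd4 (1547), mt-Nd1 (1422), mt-Nd2 (1063), mt-Nd4l (960), mt-Nd5 (708), mt-Nd6 (678) and mt-Nd3 (206, or 699 with the copy row added). The nuclear genes ran from 3.58 for Ndufa4l2 to 261 for Ndufa4, and among complex I subunits proper Ndufc2 (129), Ndufa6 (114) and Ndufb9 (112) were highest. The assembly factors ran from 6.52 for Ndufaf6 to 29.4 for Ndufaf2.

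None of the 53 genes was called for stage, E14.5 against E13.5, by edgeR over all libraries, where 3.26% of all genes were called. At an unadjusted p under 0.05 only Ndufa2 was lower, and DESeq2 called 0. Over the controls alone 0 were called, against 5.49% of 16255 genes tested, with Ndufa7 lower and mt-Nd2 and mt-Nd4 higher at an unadjusted p. A different mutant effect at E14.5 than at E13.5 (the interaction term) was called for 0 of the 53 and for 0.104% of all genes, with Ndufa4l2 and mt-Nd4 at an unadjusted p under 0.05; DESeq2 was not run for these last 2 comparisons. The E13.5 libraries are all of number 260, so stage and litter cannot be told apart.

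The rest of the respiratory chain and other mitochondrial lists are read against the 10.9% of all genes called higher. Of 38 nuclear genes of complexes II to V, 22 rose and none fell, with a median log2 change of 0.34, and the smallest p in Atp5l (0.68) and Atp5j (0.49) of the ATP synthase and Cox6c (0.77) of complex IV. These genes are also short, with a median transcript length of 743.5 bases. With the length and GC offset 16 of the 38 were called higher, with a median of 0.22, against 11.4% of all genes. Of the other 6 mitochondrially encoded mRNAs 2 rose, mt-Co3 (0.73) and mt-Atp6 (0.74), with a median of 0.64, and mt-Atp8 (0.87) did not pass. Near-identical pseudogene rows were searched for only with the Nduf and mt-Nd genes, so shared reads were not examined for these mRNAs. Of 14 genes taken as measures of mitochondrial mass 2 rose, the chaperonin Hspe1 (0.46) and the import pore Tomm40 (0.32), with a median of 0.14, a share near that of all genes, and Tomm22 (0.26) did not pass. With the length and GC offset 3 of these 14 were called higher, a larger share than the 11.4% of all genes, with a median of 0.11. In both fits 13 of the 14 were positive. Of 17 genes of mitochondrial transcription and biogenesis 2 rose: Slirp (0.85), which stabilises mitochondrial mRNAs, and Esrra (0.37), a nuclear receptor that activates respiratory genes. The median of this list was 0.10 and its share called without the offset was also near that of all genes. Tfb1m (0.27) was not called. With the length and GC offset 4 of 17 were called higher, a larger share than the 11.4% of all genes, with a median of 0.07 and 11 of 17 positive.

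Promoter windows of 250 bases before to 50 bases after the start (RefSeq, GRCm38.p6) were matched for 40 of the 46 nuclear genes and searched on both strands for fixed letters of factors known to act on respiratory genes. Windows on 1 chromosome were left out of the search, for these genes and for the share over all genes. The NRF1 core CGCATGCG was present in 2 of 33 nuclear subunit genes (6.1%) and 2 of 7 assembly factor genes, against 2.1% of the 27025 genes searched. The YY1 letters AAGATGGCG were present in 5 of 33 (15.2%) and 1 of 7, against 1.6% of all. The ETS letters CCGGAAG were found in 12.1% of the 33 and in 2 of 7, against 9.9% of all, and the ESRRA letters CAAGGTCA in 3.0% of the 33 and 0 of 7, against 1.8%. The SP letters GGGCGG were found in 45.5% of the 33 and in 6 of 7, against 38.2%. The YY1 matches all lay downstream of the start, between bases 11 and 44, and their letters include an ATG. The windows around the YY1 and NRF1 matches are shown with the motif in capitals, to print the letters counted above (positions count the first transcribed base as 1); a match is a description of sequence, not evidence of binding.
Ndufc1 (chr3:51408917-51408941, minus strand, YY1): tgcggaacAAGATGGCGccgtccgt
Ndufs4 (chr13:114388045-114388067, minus strand, YY1): cctacaggAAGATGGCGgcggtc
Ndufs6 (chr13:73328433-73328457, minus strand, YY1): tcaccggcAAGATGGCGgcggtgct
Ndufs7 (chr10:80249465-80249489, plus strand, YY1): ccgaggccAAGATGGCGgcgctggc
Ndufa9 (chr6:126849099-126849123, minus strand, YY1): tgtgggagAAGATGGCGgccgccgt
Ndufaf8 (chr11:120098936-120098960, plus strand, YY1): cagggcccAAGATGGCGgcgccctc
Ndufa11 (chr17:56717695-56717718, plus strand, NRF1): gcactgcgCGCATGCGcgcacgcc
Ndufa8 (chr2:36049332-36049355, minus strand, NRF1): gctggagaCGCATGCGcagatggt
Ndufaf4 (chr4:24897963-24897986, plus strand, NRF1): gatgtctgCGCATGCGcctgtgcg
Ndufaf5 (chr2:140170655-140170678, plus strand, NRF1): cccgttggCGCATGCGcctaatag
Of the 6 genes with the YY1 letters, Ndufc1, Ndufs4 and Ndufs6 rose in the mutants while Ndufs7, Ndufa9 and Ndufaf8 were not called. Of the 4 with the NRF1 letters, Ndufa11 rose while Ndufa8, Ndufaf4 and Ndufaf5 were not called.

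Some members overlap a neighbouring gene on the opposite strand, where reads cannot be assigned by strand. The largest overlap was that of Ndufaf2, which shares 1955 of 2978 exonic bases with the long noncoding RNA B230220B15Rik. That neighbour has no row among the deposited counts, so its level is not known here. Ndufb5 shares 616 of 4995 with Mrpl47, which was not called (0.22, adjusted p = 0.145). Ndufs6 shares 30 of 898 exonic bases with Mrpl36, which was higher (0.37, adjusted p = 0.0426), and Ndufs1 shares 9 of 8086 with Eef1b2, which was higher (0.45, adjusted p = 0.00845). Ndufa13 shares 375 of 1251 with Tssk6, which was at 2.54 CPM in the mutants and 2.52 CPM in the controls. The part of the neighbours in the members' values was not tested.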

How the data were processed

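Brain RNA of 8 embryos was analysed from the deposited table of expected counts, that is, estimated and unnormalised reads per gene, in which 66.0% to 68.9% of values per library are whole. Per the submitters' processing notes, TopHat2 2.0.9, HTSeq 0.5.4p5 and edgeR 3.4.2 were used with mm10 and GRCm38; the sources used here do not say how fractional counts arose, and 28 of the 53 members have one. Identifiers were matched to GENCODE M21 (34652 of 34866), which also gave transcript lengths, as the median over a gene's annotated transcripts of its own type.

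Counts were rounded and analysed in R 4.3.3 with edgeR 4.0.16: filterByExpr with a minimum count of 10 (17357 genes), TMM factors, and the quasi-likelihood F test with robust dispersion and a model of stage and genotype over all 8 libraries. P-values were Benjamini-Hochberg adjusted over all genes tested, and a call is an adjusted p under 0.05. CPM are TMM-scaled, and log2 CPM for within-litter differences use a prior count of 2. P-values measure the spread between embryos. Library totals were 36438282 to 47838448, and the common biological coefficient of variation was 14.27%.

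Alternatives were RLE and upper quartile factors, DESeq2 1.42.0, other count filters, unrounded counts, other covariates, subsets of libraries, each library left out, and an offset per library from a smooth (mgcv) of log2 CPM on transcript length and GC content. Adding the rows of near-identical pseudogenes (BLAST+ 2.17.0, at least 95% identity over 100 bases and 50% of the copy) was chosen after seeing the data. The members, the modules, the lists and the tests were chosen with earlier results of these data known. Every member is named except 1 that is not reported here by name; values in every library are given for the mt-Nd genes, the 10 nuclear genes and 3 assembly factors of smallest p and the 3 nuclear genes of largest p, and up to 3 genes are named per further list; Ndufb8 and the overlapping neighbours were added after their values were seen. No protein-coding row has a symbol ending in -ps, so that alternative gave no value.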

Additional observations from a re-analysis of the deposited data

Results flagged for a closer look

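Among the 5 controls, 3 of the 53 genes had a library whose gap to its nearest neighbour was over 0.71 of the whole range, a mark that chance gives to about 1 group in 20. In mt-Nd3, control 303-3 measured 110.4 CPM and the next control 69.7 CPM. In mt-Nd5, control 260-3 measured 839.2 CPM and the next 1290 CPM, and in Ndufv3 the same library measured 51.37 CPM and the next 44.3 CPM.

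The rows of 2 pseudogenes outside the 53 genes were higher in the mutants. The log2 change was 1.753 for Gm28438, the copy of mt-Nd3 (adjusted p = 0.0122), and 0.786 for Ndufb4c, the copy of Ndufb4 (adjusted p = 0.00392). Whether their counts come from the copies or from the members was not tested.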

How the results depend on the processing

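Over the 21 alternatives no called gene changed direction, and no member was called lower in any of them; 9 of the 53, none of them called, had a negative value in at least 1. The nuclear count of 23 was 14 in the E14.5 samples alone and 14 with the length and GC offset, and 10 to 24 with 1 library left out (10 without mutant 303-2, 13 without control 195-2, 15 without control 303-3). The assembly factor count of 1 was 2 with DESeq2 and 0 with upper quartile factors, without the stage covariate, in the E14.5 samples, without the 2 libraries that lack Hox expression and with the offset, and 0 to 2 with 1 library left out. The mitochondrially encoded count of 3 was 0 in the E14.5 samples and without the 2 Hox-poor libraries, and 0 to 3 with 1 library left out (0 without mutant 260-1). Of all genes 3576 were called; there were 1478 without the stage covariate, 1518 in the E14.5 samples, 1970 without the 2 Hox-poor libraries and 1317 to 4984 with 1 library left out. For stage, 565 genes were called, 341 with upper quartile factors, 2371 with DESeq2, 28 without the 2 Hox-poor libraries and 0 to 1419 with 1 library left out. The causes were not tested, and the subsets also hold fewer samples.

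Same-numbered mutants and controls deviated together only weakly (correlations over genes 0.202 for 260, 0.032 for 195 and 0.150 for 303, and mutant 195-3 correlated best, at 0.233, with control 303-3), so the number was not taken as pairing. With it as a replicate block in place of stage, 21 nuclear genes, 0 assembly factors and 3 mitochondrially encoded subunits were called. With the block and the offset, 8 nuclear genes, 0 assembly factors and 2 mitochondrially encoded subunits were called. Of all genes, 2698 were called with the block and 2678 with the block and the offset, in either direction. Depth limits little here: the lowest member, Ndufa4l2, was at 2.73 CPM or more in every library.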
